A study of Caenorhabditis elegans with 3 samples.

Results

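The genes described here encode basic helix-loop-helix (bHLH) transcription factors of Caenorhabditis elegans. They were taken as every row of the deposited expression table whose gene identifier maps to a symbol with the prefix hlh-, apart from 1 such gene that was not analysed here, together with lin-32, cnd-1 and ngn-1. This gave 27 genes of the 46148 gene identifiers in the table, 7 on the X chromosome and 20 on the autosomes. Each was found in a single row, and all 27 are annotated as protein-coding.

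Poly(A) RNA of whole embryos was sequenced in 3 genotypes. The DCC mutant (strain TY0810, 3 replicates) has the genotype sdc-2(y93, RNAi), a mutation in sdc-2 combined with feeding on sdc-2 RNAi bacteria. The protein SDC-2 is needed to load the dosage compensation complex (DCC), which lowers transcription of X in hermaphrodites. The 8rex deletion (strain TY5827, 5 replicates) lacks 8 rex sites, the elements on X at which that complex is recruited, through the alleles rex-8 (y737), rex-14 (y738), rex-35 (y740), rex-32 (y572), rex-47 (y671), rex-43 (y741), rex-33 (y743) and rex-48 (y742). Wild type was strain N2 (5 replicates), and it was fed, like the 8rex deletion, HT115 bacteria carrying the empty vector pL4440. In each genotype 2 replicates were of mixed stage, with most embryos younger than the comma stage. For the remaining replicates, young embryos were taken from young adults 68 to 70 hours after L1 larvae were plated and developed at 20 C for 7 to 8 hours, mostly to the 3-fold stage; these older replicates were 1 of 3 in the DCC mutant (33.3%), 3 of 5 in the 8rex deletion (60%) and 3 of 5 in wild type (60%). The comparison of each mutant with wild type asks what loss of the complex, or of these recruitment sites, does to gene expression.

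A bHLH protein binds DNA as a dimer: the helix-loop-helix part joins the partners and the basic part contacts short DNA elements known as E-boxes. Many factors restricted to a tissue pair with a broadly expressed E protein, for which the worm gene is hlh-2, the homologue of Daughterless in Drosophila. In worm embryos the tissue-restricted members act in neuron specification (the proneural genes of the Atonal, NeuroD, neurogenin and Achaete-Scute families), in body wall muscle (the MyoD homologue hlh-1), in later mesoderm (the Twist homologue hlh-8) and downstream of Notch (the REF-1 family).

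The authors deposited 1 FPKM value per genotype and locus (fragments counted per kilobase of transcript and divided by library depth), in which the replicates had already been combined. No value below therefore has a standard deviation, the spread between replicates cannot be given, and sequencing depth is unknown. The only test available is the authors' own, whose p is quoted. That test is not named, and how it used the replicates, which mix embryo stages, is not given. A p of 1 was taken to mean that a locus was not tested. Log2 differences are mutant minus wild type on the log2(FPKM + 1) scale, which understates differences of low genes, and a ratio is a plain ratio of deposited FPKM. RNA came from whole embryos, so fewer cells of a type and less RNA per cell cannot be told apart.

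The embryo labels were set against stage markers, because the share of older replicates differed between genotypes. Markers of oocytes and early embryos summed to 1219 FPKM in the DCC mutant, 633 in the 8rex deletion and 613 in wild type. The loci of mex-3, oma-1 and oma-2 also hold other genes, and that of oma-1, which joins 9 genes, gave 292, 123 and 153 FPKM of these sums. In all, 9 of the 10 loci were higher in the DCC mutant than in wild type (median log2 difference 1.14), against 48% of all loci. Of the 10, 4 had a p under 0.05 in the authors' deposited table, where 2.07% of all tested loci had one. Genes of the onset of zygotic transcription were lower in abundance, at 62.4, 37.7 and 41.9 FPKM summed over 9 loci in the same order of genotypes. Of the 5 loci measured, 4 were higher in the DCC mutant than in wild type (median log2 difference 0.81), among them pes-10, at 15.6 FPKM in the DCC mutant and 4.63 in wild type (p = 0.0422 in the authors' deposited table). The other 4 loci stayed under the 1 FPKM minimum: end-3 and sdz-23 were higher in the DCC mutant, and med-1 and med-2 were listed at 0 there. Late-embryo markers summed to 4854, 5953 and 5960 FPKM. Most of each sum was 1 gene, sqt-3, at 3347, 4604 and 4637 FPKM, so the sums mainly follow that gene. Of the 9 measured loci, 6 were lower and 3 higher in the DCC mutant than in wild type, with a median log2 difference of -0.09. Among them myo-3, unc-54 and col-10 lay close to wild type, at -0.02, 0.02 and 0.01. The largest differences were those of the dpy-13 locus (-1.41), which also holds col-33, of rol-6 (-0.66) and of the X-linked ajm-1 locus (0.56). The ajm-1 locus joins 4 genes. In the 8rex deletion, 1 of the 5 measured zygotic-onset loci was higher than in wild type (median -0.11). Of the 9 late loci, 7 were higher there (median 0.08). Adult markers were at or near 0: 9 major sperm protein and sperm genes summed to 0, 1.09 and 0.745 FPKM, and 6 yolk protein (vitellogenin) genes to 1.19, 1.55 and 1.2 FPKM. The part that embryo stage plays in the DCC mutant differences of the bHLH genes was not tested.

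The bHLH genes were mostly of low to middle abundance, and hlh-2 was the most abundant in every genotype. Of the 27 genes, 20 reached a mean of 1 FPKM over the 3 genotypes, the minimum used for the comparisons, and 9 genes stood at 20 FPKM or more in wild type. The median over those 20 was 17.6 FPKM in the DCC mutant, 16.3 in the 8rex deletion and 14.2 in wild type. The E protein gene hlh-2 (WBGene00001949; I, 7190788 to 7193920 in ce11) stood at 82.8 FPKM in the DCC mutant, 96.3 in the 8rex deletion and 106 in wild type. It alone made up 18.9%, 23.1% and 23.2% of the FPKM summed over the 27 genes. In wild type its level lay above that of 89.8% of the 15628 loci measured. The next most abundant by mean level were the Achaete-Scute family gene hlh-3 and the MyoD homologue hlh-1, followed by the neurogenin gene ngn-1 and the Atonal homologue lin-32. Without replicate values, neighbours in this order cannot be told apart.

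**Figure D1:**
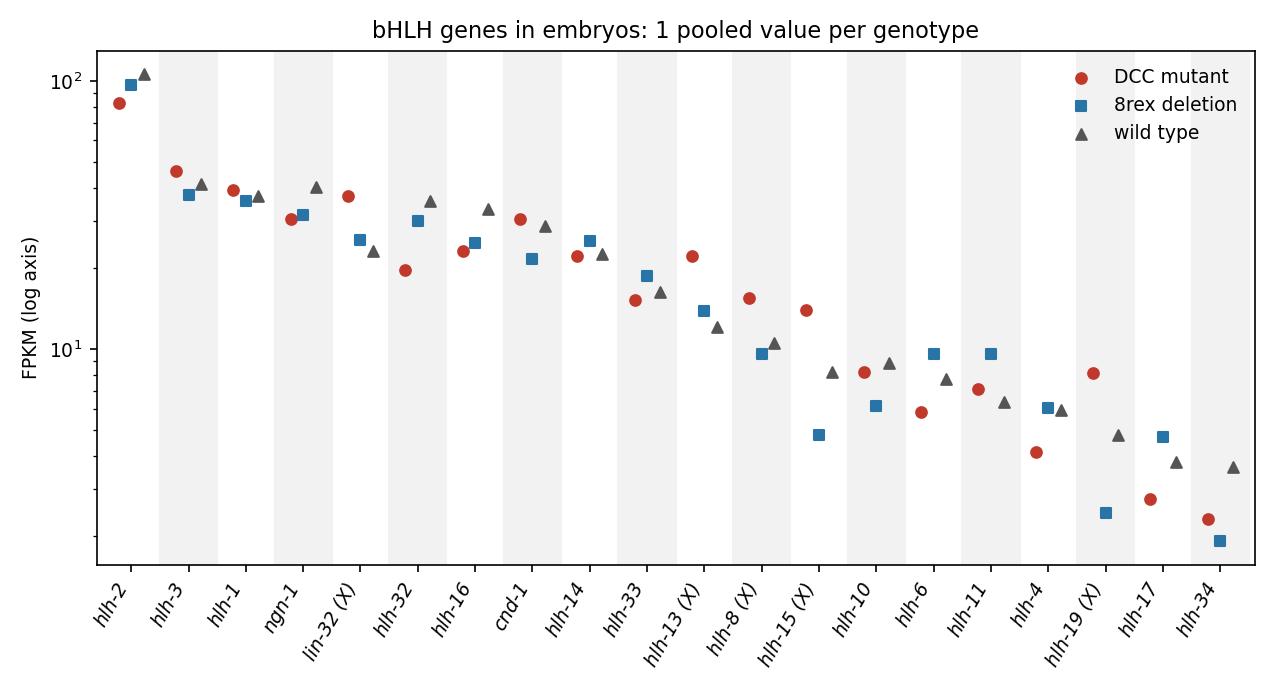
FPKM of the 20 bHLH genes with a mean of at least 1 FPKM, on a log axis, with 1 point per genotype (DCC mutant, 8rex deletion, wild type) and genes ordered by mean level. Points are the authors' pooled values and have no error bars; hlh-2 is highest, between 82.8 and 106 FPKM, and the genes marked X have their highest value in the DCC mutant.

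In the DCC mutant, the bHLH genes divided by chromosome. All 5 measured X-linked genes (hlh-13, hlh-15, hlh-19, lin-32 and hlh-8) had higher values than in wild type, while 11 of the 15 measured autosomal genes had lower values. As medians, the log2 differences were 0.66 for the 5 X-linked genes and -0.34 for the 15 autosomal genes, against 0.46 over 2939 X-linked loci and -0.04 over 12689 autosomal loci of the whole table. The autosomal median of the bHLH genes was smaller under other settings, at -0.18 with a pseudocount of 5, -0.10 over the 13 genes with a mean of at least 5 FPKM, and -0.09 over all 20 without a minimum. Of all X-linked loci, 70.3% had a higher value than in wild type, and of all autosomal loci, 53.3% had a lower one. Comparable loci were those that hold 1 protein-coding gene and lie in the range of mean level of all 20 measured bHLH genes (2.63 to 95.1 FPKM). Of these, 90.6% of 1329 on X were higher (median 0.58) and 51.4% of 6595 on autosomes were lower (median -0.02). Most comparable X-linked genes were thus higher too. Over all 20 bHLH genes the median was -0.06, with 9 higher and 11 lower, against a median of 0.00 and 48% higher over all 15628 loci.

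None of these differences passed the authors' test. Of the 20 measured bHLH genes, 17 were tested in the DCC mutant, and 0 had a p under 0.05 in the authors' deposited table. The lowest p there was 0.229, for hlh-13, and the median was 0.715. Such a p was given to 2.07% of all tested loci, and to 4.08% of those on X, in the authors' deposited table. The q in the authors' deposited table was 0.999938 for each of the 17. No locus of the whole table had a q under 0.05 there in either comparison, and the smallest q was 0.0632. A q near 1 is therefore not particular to the bHLH genes. No bHLH gene differed by 2-fold or more, a size reached by 11.4% of all loci above 0 in both genotypes. On the log2(FPKM + 1) scale, at least 1.5-fold higher were 4 bHLH genes, all on X, and at least 1.5-fold lower was 1, hlh-32 on chromosome IV. As a plain ratio hlh-34 was also past 1.5-fold lower, at 0.637 times wild type. On the log2(FPKM + 1) scale, the shares of the table were 16.8% higher and 12.7% lower over all loci. Over X-linked loci 43.6% were higher, and over autosomal loci 14.1% were lower. On X, then, differences of this size were common among loci of all kinds.

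**Figure D2:**
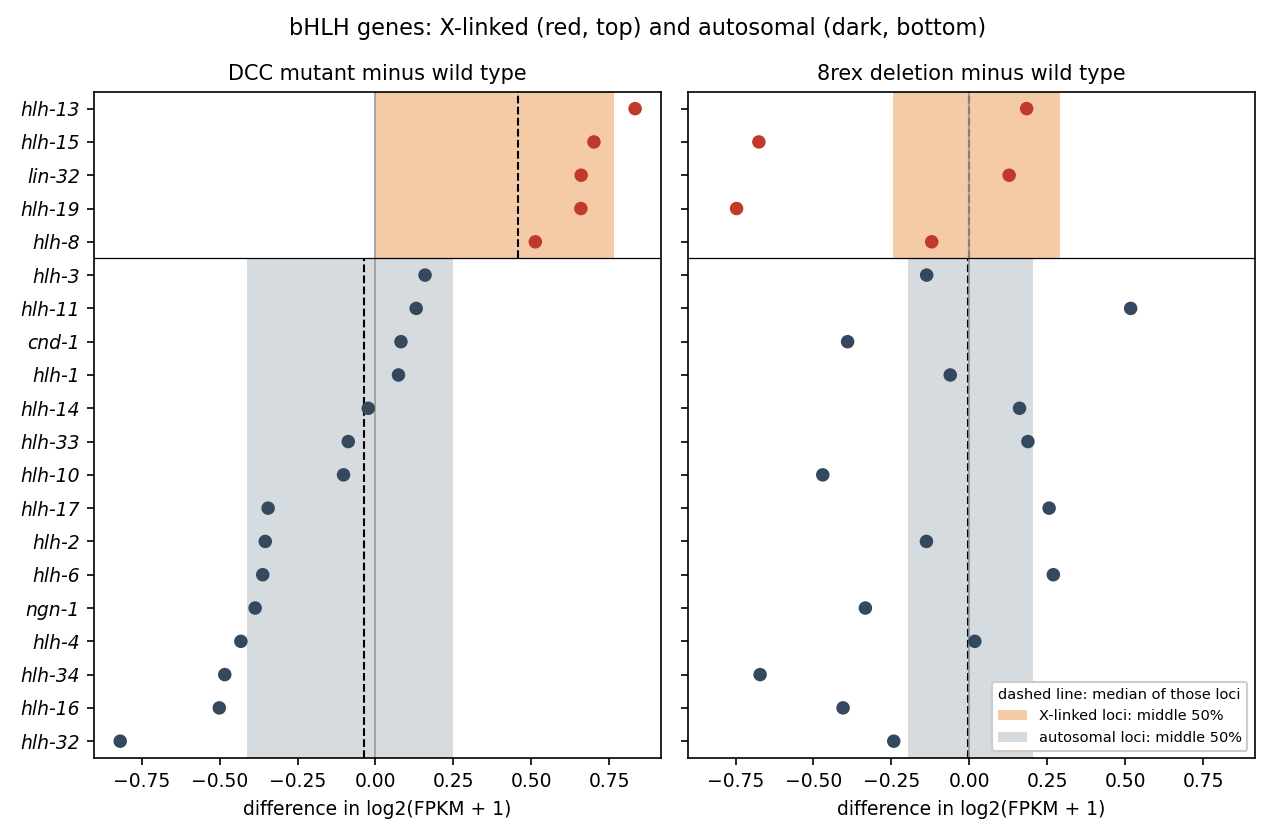
Log2(FPKM + 1) difference of each measured bHLH gene, DCC mutant minus wild type on the left and 8rex deletion minus wild type on the right, with X-linked genes above autosomal ones. Bands give the interquartile range over all X-linked or all autosomal loci, and dashed lines their medians. In the DCC mutant the 5 X-linked genes lie between 0.51 and 0.83 and the autosomal genes between -0.82 and 0.16. The bands of all loci there run from 0 to 0.77 on X and from -0.41 to 0.25 on the autosomes, and so overlap. In the 8rex deletion the X-linked and autosomal bHLH genes overlap.

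The X-linked gene with the largest difference was hlh-13, a homologue of the mammalian gene Ptf1a (WBGene00001957; X, 4249249 to 4250766). It stood at 22.2 FPKM in the DCC mutant, 13.8 in the 8rex deletion and 12.05 in wild type. The DCC mutant value stood apart from the other pair, at 1.85 times wild type, a log2 difference of 0.83. Among the 1329 comparable X-linked loci, 22.6% had a larger difference, so hlh-13 lay in the upper part of X but not at its edge.

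The Atonal homologue lin-32, which makes cells competent to become neurons such as the touch receptor neurons (WBGene00003018; X, 2229055 to 2230122), stood at 37.3 FPKM in the DCC mutant, 25.5 in the 8rex deletion and 23.2 in wild type. The DCC mutant was again the high genotype (log2 difference 0.66; p = 0.792 in the authors' deposited table). The Twist homologue hlh-8, which patterns the M lineage and acts in vulval and enteric muscles (WBGene00001953; X, 8116457 to 8120351), had values of 15.4 FPKM in the DCC mutant, 9.60 in the 8rex deletion and 10.5 in wild type. Its log2 difference in the DCC mutant, 0.51, was the smallest of the 5 X-linked genes (p = 0.433 in the authors' deposited table). The genes that overlap hlh-8 on the opposite strand, C02B8.11 and C02B8.12, stood at or under 0.535 FPKM in every genotype.

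For hlh-15 and hlh-19 the mutants lay on opposite sides of wild type. The NHLH family gene hlh-15 (WBGene00001959; X, 2412953 to 2413377) stood at 13.997 FPKM in the DCC mutant, 4.78 in the 8rex deletion and 8.23 in wild type. The gene hlh-19, of the Achaete-Scute family (WBGene00001962; X, 555792 to 557295), stood at 8.15 FPKM in the DCC mutant, 2.45 in the 8rex deletion and 4.79 in wild type. Highest over lowest of the 3 genotypes was 2.93-fold for hlh-15 and 3.32-fold for hlh-19, the only 2 of the 20 measured bHLH genes at 2-fold or more. For this range over 3 genotypes no share of all loci is given here. In the authors' deposited table, the DCC mutant p was 0.708 for hlh-15 and 0.704 for hlh-19, and the 8rex deletion p was 0.636 for hlh-15, while hlh-19 was not tested there. The gene hlh-15 overlaps trpp-12 on the opposite strand, and the locus of trpp-12, which joins 4 genes, stood at 163, 93.9 and 102 FPKM in the DCC mutant, the 8rex deletion and wild type. Use of strand by the authors is not stated, so reads of hlh-15 and trpp-12 may not be separable.

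All 5 X-linked bHLH genes had their highest value of the 3 genotypes in the DCC mutant, as did 65.5% of X-linked loci and 88% of the comparable ones, while 3 of the 15 autosomal bHLH genes did, against 34.5% of autosomal loci. Summed over the 7 X-linked bHLH genes, the level was 97.1 FPKM in the DCC mutant, 56.1 in the 8rex deletion and 59.1 in wild type. X-linked genes thereby made up 22.1% of all bHLH FPKM in the DCC mutant, against 13.5% in the 8rex deletion and 12.9% in wild type.

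The X-linked bHLH genes differed from wild type by about as much as the genes around them. As neighbours, loci of 1 protein-coding gene that start within 250 kb were taken, 46 to 50 of them per gene. In the DCC mutant the neighbours had a median log2 difference of 0.58 around hlh-13, 0.59 around hlh-15, 0.51 around lin-32, 0.56 around hlh-19 and 0.55 around hlh-8. The genes themselves stood at 0.83, 0.70, 0.66, 0.66 and 0.51. Between 13 and 31 neighbours had a larger difference than the bHLH gene they surround, so none of the 5 lay outside its neighbourhood.

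**Figure D3:**
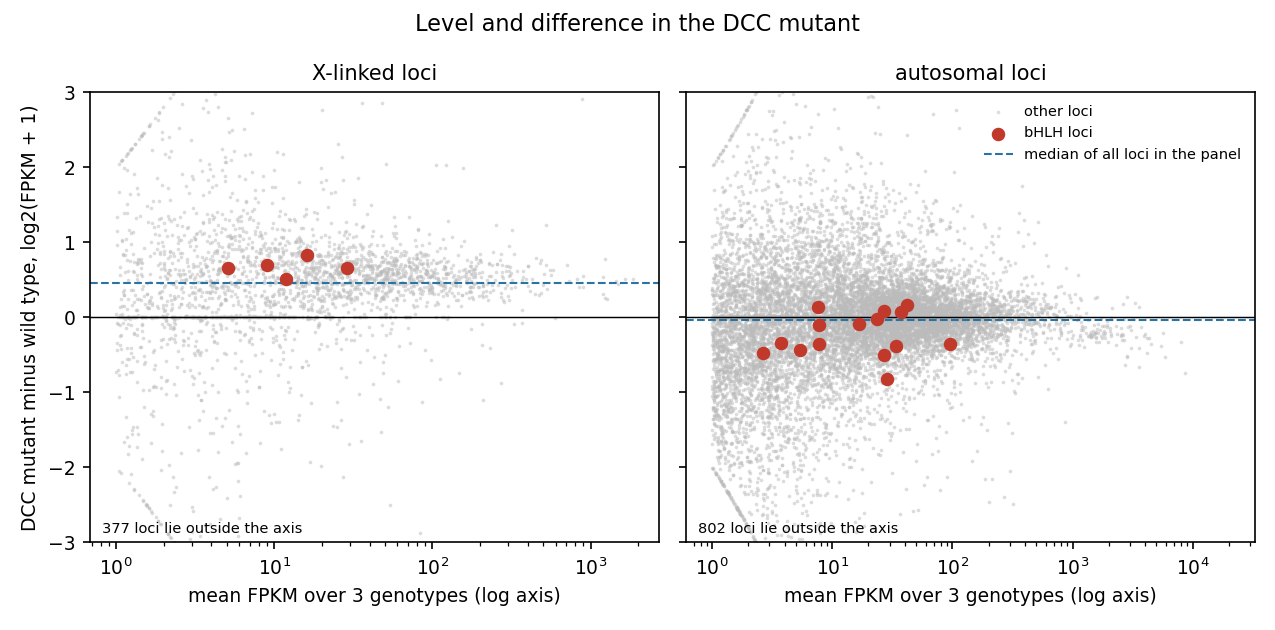
Mean FPKM over the 3 genotypes (log axis) against the log2(FPKM + 1) difference, DCC mutant minus wild type, for X-linked loci on the left and autosomal loci on the right. Grey points are other loci, red points are bHLH loci and the dashed line is the median of the panel (0.46 on X, -0.04 on the autosomes); 377 X-linked and 802 autosomal loci lie beyond the vertical range. The X-linked bHLH genes all lie above the X median, within the cloud of X-linked loci.

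Among the autosomal members, the E protein gene hlh-2 had its lowest value in the DCC mutant, a log2 difference of -0.35 from wild type (p = 0.450 in the authors' deposited table). A larger share of the comparable autosomal loci defined above lay above this difference (77.5%) than below it. Its 65 neighbours on chromosome I had a median of 0.03.

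The proneural and neuronal group held 11 measured genes, of which 5 had higher and 6 lower values in the DCC mutant, with a median log2 difference of -0.02. The Achaete-Scute gene hlh-19 was grouped apart; with it the count is 6 higher and 6 lower, and the median 0.03. Of the 5 higher genes, 3 were the X-linked hlh-13, hlh-15 and lin-32. The remaining ones were the Achaete-Scute gene hlh-3, at 46.3 FPKM in the DCC mutant, 37.6 in the 8rex deletion and 41.4 in wild type, and the NeuroD homologue cnd-1, at 30.5, 21.7 and 28.8 FPKM. The DCC mutant value was 1.12 times wild type for hlh-3 and 1.06 times for cnd-1.

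On the lower side, the neurogenin gene ngn-1 stood at 30.5 FPKM in the DCC mutant, 31.7 in the 8rex deletion and 40.2 in wild type. Wild type was thus the high genotype for ngn-1, and the authors' deposited table gave p = 0.508 for the DCC mutant. The gene hlh-6, which acts in pharyngeal gland cells, stood at 5.81, 9.55 and 7.75 FPKM in the DCC mutant, the 8rex deletion and wild type. The gene hlh-4, of the Achaete-Scute family and active in the ADL sensory neurons, stood at 4.15, 6.03 and 5.94 FPKM in that order. For both, the DCC mutant was the low genotype, and hlh-4 was not tested by the authors there.

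Another Achaete-Scute gene, hlh-14, which acts in neuroblast divisions, stood at 22.2 FPKM in the DCC mutant, 25.3 in the 8rex deletion and 22.6 in wild type, and hlh-10 stood at 8.20, 6.13 and 8.88 FPKM. Both lay close to wild type in the DCC mutant, with log2 differences of -0.02 for hlh-14 and -0.10 for hlh-10. The bHLH-PAS gene hlh-34 was the least abundant gene measured, at 2.32, 1.92 and 3.65 FPKM, with both mutants below wild type. It was not tested by the authors in either comparison, and it overlaps T01D3.3 on the opposite strand, which stood at 29.4, 38.1 and 36.2 FPKM.

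All 3 measured genes related to the Olig family had their lowest value in the DCC mutant. So did 9 of the 15 autosomal bHLH genes, these 3 included, and 41.1% of all autosomal loci. The gene hlh-32 (WBGene00013665; IV, 16132464 to 16134290) stood at 19.8 FPKM in the DCC mutant, 30.01 in the 8rex deletion and 35.7 in wild type. At 0.555 times wild type, a log2 difference of -0.82, it was the largest difference on the lower side among the bHLH genes (p = 0.283 in the authors' deposited table). Of the comparable autosomal loci, 7.98% had a lower difference. The gene hlh-16, which acts in the lineage of the AIY interneurons, stood at 23.2, 24.8 and 33.2 FPKM (DCC mutant p = 0.715 in the authors' deposited table). Its antisense neighbour trt-1, a telomerase gene, stood at 10.96, 5.29 and 5.43 FPKM and so was highest in the DCC mutant. The gene hlh-17, a marker of cephalic sheath glia, stood at 2.77, 4.71 and 3.78 FPKM and was not tested. Its neighbour hlh-31, 1355 bases away on IV and of the same family, was listed at 0 in all 3 genotypes, and reads that fit more than 1 of these related genes may have been split or lost.

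The muscle regulator hlh-1 (WBGene00001948; II, 4518574 to 4522528) was among the steadiest bHLH genes. It stood at 39.2 FPKM in the DCC mutant, 35.6 in the 8rex deletion and 37.2 in wild type. Highest over lowest was 1.10-fold, and the authors' deposited table gave a p of 0.886 in both comparisons. The gene B0304.4 overlaps it on the opposite strand and stood at 12.6, 4.34 and 2.60 FPKM. In all, 11 of the 20 measured bHLH genes stayed within 1.5-fold over the 3 genotypes, 7 ranged from 1.5-fold to under 2-fold, and hlh-15 and hlh-19 ranged further. No such counts over all loci are given here, so these do not set the bHLH genes apart from other loci.

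Of the remaining measured genes, hlh-11, a homologue of the mammalian gene TFAP4, stood at 7.07 FPKM in the DCC mutant, 9.55 in the 8rex deletion and 6.37 in wild type. The 8rex deletion was the high genotype. The non-coding genes F58A4.16 and F58A4.20, which overlap hlh-11 on the opposite strand, were listed in the 8rex deletion at 24.8 and 16.1 FPKM and at 0 in the DCC mutant and wild type. The part of these overlapping genes in the value of hlh-11 was not tested. The locus of hlh-33 also holds the gene WBGene00021445 and stood at 15.3, 18.7 and 16.3 FPKM, a value that covers both genes.

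The REF-1 family, whose proteins carry a pair of bHLH domains and several of whose genes are targets of Notch signalling in early embryos, was close to undetected. None of its 5 members with an hlh- symbol reached a mean of 1 FPKM. The genes hlh-25 and hlh-29 were listed at 0 in all genotypes. The gene hlh-26 stood at 0.665 FPKM in the DCC mutant, 0.438 in the 8rex deletion and 0.771 in wild type. The gene hlh-27 stood at 0.983 and 0.282 FPKM in the DCC mutant and the 8rex deletion and was listed at 0 in wild type. The gene hlh-28 was listed at 0 in the DCC mutant and the 8rex deletion and stood at 0.242 FPKM in wild type. No direction can be read at these levels. The X-linked pair hlh-28 and hlh-29 lie 2415 bases apart on opposite strands with the same coding length, 717 bases, and hlh-25 and hlh-27 on II share a coding length of 804 bases; reads that fit both copies of a pair may not have been assigned, so a value of 0 does not show that such a gene was silent. A listed 0 can also stand at well expressed loci of this table: 218 loci were at 0 in the DCC mutant with at least 10 FPKM in both other genotypes, 83 in the 8rex deletion and 106 in wild type. The last gene under the minimum was hlh-12, which acts in migration of the gonadal distal tip cells and was listed at 0 in all genotypes, while spp-10 on the opposite strand of the same stretch stood at 93.3, 98.9 and 95.2 FPKM.

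In the 8rex deletion, the bHLH genes did not divide by chromosome. Of the 5 X-linked genes, 2 had higher and 3 lower values than wild type, with a median log2 difference of -0.12, where 46% of X-linked loci were higher. Of the 15 autosomal genes, 6 were higher and 9 lower, with a median of -0.14 (-0.03 over all 20 without a minimum), where 48% of autosomal loci were higher. Over all 20 the median was -0.13, with 8 higher, against -0.0035 and 47.6% higher over all loci. The authors' deposited table holds a test for 17 of the 20, and 0 had a p under 0.05, against 0.459% of all tested loci. The lowest p in the authors' deposited table was 0.436, for cnd-1, and the q was again 0.999938 for each gene tested. No bHLH gene differed by 2-fold or more, against 6.01% of all loci. At 1.5-fold or more, 0 were higher and 3 lower (hlh-19, hlh-15 and hlh-34), against 8.43% and 6.63% of all loci. With log2 differences of -0.75, -0.68 and -0.67, these 3 genes lay low among the comparable loci of their chromosome class. On X, 3.91% of these loci were lower than hlh-19 and 4.74% lower than hlh-15, and on autosomes 3.58% were lower than hlh-34. Those loci span the levels of all 20 genes, up to 95.1 FPKM, and hlh-34 sets their lower end, so they are not matched to the level of each gene. All 3 had a mean level under 10 FPKM, and hlh-19 and hlh-34 were not tested by the authors. The X-linked neighbours of hlh-19 and hlh-15 had medians of -0.06 and -0.08 in the 8rex deletion. On the higher side the largest difference was that of hlh-11, 0.52.

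Both comparisons use the same wild-type values, so a high or low wild-type value enters both. The genes ngn-1, hlh-16, hlh-2, hlh-32, hlh-34 and hlh-10 had lower values in both mutants, which by definition makes wild type their highest genotype. These were 6 of the 15 autosomal bHLH genes, while wild type was highest at 4046 of 12689 autosomal loci. The part of the shared wild-type value in the order of these genes was not tested.

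Genes related to the bHLH members were counted for the same comparisons. Of 13 further bHLH genes without the prefix, 6 had higher and 7 lower values in the DCC mutant (median -0.02). In the 8rex deletion 4 had higher and 9 lower values (median -0.07). Across all loci, 48% were higher in the DCC mutant and 47.6% in the 8rex deletion. In the authors' deposited table, none of the 13 had a p under 0.05 in either comparison, against 2.07% and 0.459% of all tested loci. The bHLH-PAS gene cky-1 stood at 17.1 FPKM in the DCC mutant, 23.6 in the 8rex deletion and 25.9 in wild type (DCC mutant p = 0.238 in the authors' deposited table). The X-linked Max-like gene mxl-3 stood at 36.3, 54.5 and 55.3 FPKM in that order and was lowest in the DCC mutant. The X-linked Mad-like gene mdl-1 stood at 138, 95.1 and 101 FPKM, and the X-linked HAND homologue hnd-1, which acts in early mesoderm, at 24.4, 13.3 and 14.5 FPKM, both highest in the DCC mutant. The autosomal Max-like gene mxl-2 was also highest there, at 76.7, 46.8 and 53.5 FPKM. X-linked genes of the wider family thus lay on both sides of wild type.

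Among genes of the Notch pathway, which acts upstream of the REF-1 family, 9 of 12 measured loci had higher values in the DCC mutant (median 0.43) and 8 of 12 in the 8rex deletion (median 0.12). For all loci these shares were 48% and 47.6%. The loci of aph-1 and aph-2 also hold other genes. In the authors' deposited table none of the 12 had a p under 0.05 in either comparison, against 2.07% and 0.459% of all tested loci. The gamma-secretase subunit gene pen-2 stood at 81.2 FPKM in the DCC mutant, 49.1 in the 8rex deletion and 41.5 in wild type (DCC mutant p = 0.116 in the authors' deposited table). The X-linked locus that joins the presenilin gene sel-12 with F35H12.5 stood at 96.6, 60.4 and 60.2 FPKM. The locus of the ligand gene dsl-1, which holds a further gene, stood at 30.7, 13.01 and 9.46 FPKM, and the ligand gene apx-1 stood at 18.4, 17.2 and 11.9 FPKM. All 4 were highest in the DCC mutant and lowest in wild type. The receptor gene glp-1, which is also among the early markers given above, stood at 28.9, 14.5 and 12.9 FPKM. The founder of the REF-1 family, ref-1 itself, was measured at 16.3, 9.11 and 12.3 FPKM, unlike its 5 relatives with an hlh- symbol.

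Of 16 loci on a list of muscle genes set beside hlh-1, 11 had higher values in the DCC mutant (median 0.09) and 11 in the 8rex deletion (median 0.09). For all loci these shares were 48% and 47.6%, and for X-linked loci in the DCC mutant 70.3%. The X-linked loci unc-27, tni-1, tnt-2, mup-2 and act-4 were all higher in the DCC mutant, while autosomal loci of the list lay on both sides. The locus of deb-1 also holds rps-4 and further genes, that of unc-15 holds sue-1 and that of unc-22 holds ZK617.7. The gene unc-89 enters the count with separate loci, at 0.33 and -1.11 in the 8rex deletion. The X-linked troponin T gene mup-2 stood at 620.0 FPKM in the DCC mutant, 384 in the 8rex deletion and 357 in wild type, and was the only one whose p lay under 0.05 in the authors' deposited table (0.0289), where 4.08% of tested X-linked loci had one. The X-linked locus of tnt-2, another troponin T gene, joined with M02D8.3, stood at 75.8, 45.2 and 43.0 FPKM, and the X-linked troponin I gene tni-1 at 610.0, 505 and 469.5 FPKM. The autosomal locus of unc-22, the twitchin gene, stood at 21.4, 20.5 and 28.9 FPKM, with wild type highest. The muscle regulator unc-120, on chromosome I, stood at 96.3, 87.8 and 78.7 FPKM.

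Of 16 neuronal loci downstream of the proneural factors, 9 had higher values in the DCC mutant (median 0.09) and 6 in the 8rex deletion (median -0.07). Over all loci the shares were 48% and 47.6%, and over X-linked loci in the DCC mutant 70.3%. The X-linked loci of the list (mec-4, mec-7, mec-18, unc-3 and ttx-3) were all higher in the DCC mutant, while its autosomal loci lay on both sides. In the authors' deposited table none of the 16 had a p under 0.05 in either comparison, against 2.07% and 0.459% of all tested loci. The homeobox gene unc-4 of motor neurons stood at 3.06 FPKM in the DCC mutant, 3.87 in the 8rex deletion and 6.37 in wild type (DCC mutant p = 0.200 in the authors' deposited table). The LIM homeobox gene mec-3, which specifies touch receptor neurons, stood at 4.91, 8.03 and 7.81 FPKM. Both were lowest in the DCC mutant. The X-linked genes unc-3, which specifies cholinergic motor neurons, and mec-7, a touch neuron tubulin, were highest there, at 45.6, 32.99 and 30.7 FPKM for unc-3 and 75.8, 53.4 and 52.5 FPKM for mec-7.

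**Figure D4:**
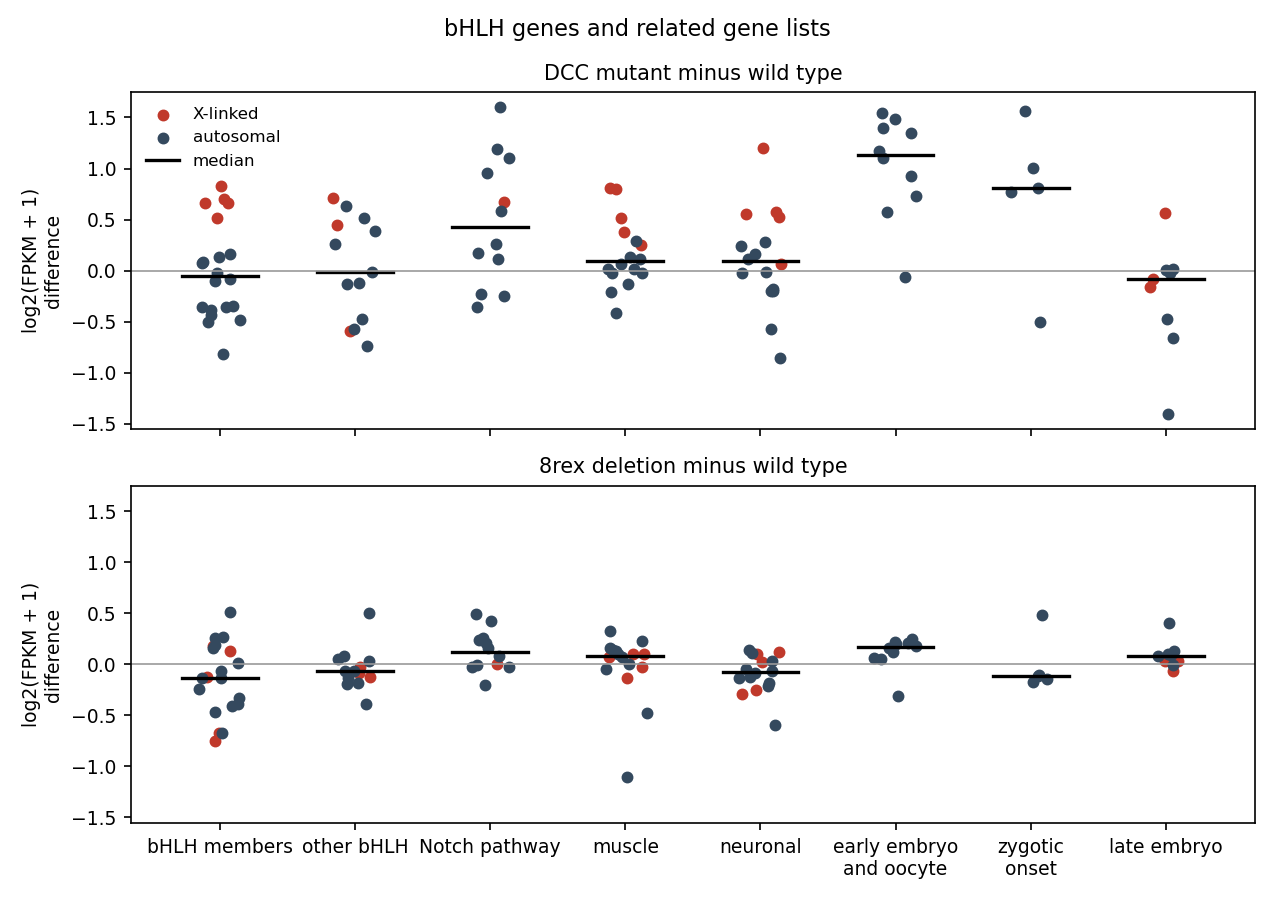
Log2(FPKM + 1) difference from wild type in the DCC mutant (top) and the 8rex deletion (bottom) for the measured bHLH genes, 4 lists of related genes and 3 lists of embryo-stage markers; each point is a locus, red on X and dark on an autosome, and bars are medians. In the DCC mutant the median was -0.06 for the bHLH genes, 1.14 for early-embryo and oocyte markers, 0.81 for markers of zygotic onset and -0.09 for late-embryo markers. In the 8rex deletion these medians were -0.13, 0.17, -0.11 and 0.08.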

How the data were processed

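Per the submitters' processing notes, cutadapt 1.2.1, TopHat2 2.1.1 and Cufflinks 2.2.1 were used with build ce11; for settings, annotation and strand use, the sources used here give nothing. The deposited table has 40669 loci with 1 FPKM value per genotype, the authors' log2 fold change for each mutant, and a p-value and q-value whose test is not named in the file headers. The deposited log2 fold changes equal the log2 ratio of the deposited FPKM to within 5.2e-05 where both values are above 0.

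Coordinates (1-based), gene types and coding lengths came from Ensembl release 115 (assembly WBcel235, the same as ce11), where 45923 of 46148 identifiers matched, and symbols from a gene name table. The 242 rows without an identifier were left out. The 15628 loci averaging 1 FPKM or more were kept, and differences were taken with a pseudocount of 1. Models over replicates could not be fitted to pooled values, as the design had foreseen; only the authors' p is described. Fold counts use loci above 0 in both genotypes and the log2(FPKM + 1) scale. The members, their grouping by role and the related lists were chosen with earlier results of these data known; all members are named, and from each related list the 4 genes with the lowest p in the authors' deposited table in either comparison; ref-1, hnd-1, glp-1 and unc-120 were added after their values were seen. Alternatives were other pseudocounts (0.1 and 5), filters, scalings and a 1.5-fold threshold. Python 3.11.15, numpy 2.4.6, pandas 2.3.3 and matplotlib 3.10.9 were used.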

Additional observations from a re-analysis of the deposited data

How the results depend on the processing

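With pseudocounts of 0.1 or 5, no filter, a minimum mean of 5 FPKM, loci of 1 gene only, or scaling by the median ratio, the median over the bHLH genes lay between -0.09 and 0.03 in the DCC mutant and between -0.14 and -0.06 in the 8rex deletion. No gene differed by 2-fold under these settings, and none had an authors' p under 0.05 under the filters, the only settings that bear on that count. A pseudocount or a filter cannot change the sign of a gene's difference; the median-ratio scaling can, and under it none of the 20 measured genes changed sign in either comparison. At a 1.5-fold threshold the count became 5 genes in the DCC mutant and 3 in the 8rex deletion. The autosomal median in the DCC mutant, -0.34, was -0.18 with a pseudocount of 5, -0.10 with the minimum of 5 FPKM (13 genes) and -0.09 with no filter (20 genes). No paired analysis was possible because the replicates were combined before deposit; for the same reason none could be left out.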
